A study of Mus musculus with 20 samples.

Results

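The genes described here are 10 genes of the nuclear factor kappa B (NF-kB) pathway and of inflammatory signalling: the subunit genes Rela, Relb, Rel, Nfkb1 and Nfkb2, the inhibitor family genes Nfkbia and Nfkbiz, the feedback gene Tnfaip3, and the target genes Ier3 and Ptgs2. They were taken by gene symbol from the 14700 symbols listed in 4 deposited expression tables. The rule used no measured value, but the members were chosen with earlier results of these data known. All 10 were found, 7 of them in all 4 tables. Relb and Ptgs2 were listed in 3 tables, and not in the one that compares genotypes in normoxia. Ier3 was listed only in the table that compares genotypes under deprivation.

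The study measured total RNA of mouse primary cortical neurons in 20 libraries. The neurons came from cortices of embryonic day 15 and were grown for 7 days in Neurobasal medium with B27 supplement. They were either wild type (WT) or knocked out (KO) for ciRS-7, a circular RNA that binds the microRNA miR-7 and whose locus is listed as Cdr1as. The strain label C57BL/6N-Cdr1asem1Nikr was given for the WT libraries as well as the KO ones. The normoxic groups N_WT and N_KO received medium with 25 mM glucose and sodium pyruvate for 12 h. OGD_WT and OGD_KO were kept for 12 h under oxygen and glucose deprivation (OGD), a culture model of ischemia, in a chamber at 1% oxygen without the added glucose and pyruvate. Each of the 4 groups had 5 libraries, which the design text calls biological replicates, and the N and OGD libraries of the same number share a genotype label and a batch label. Such libraries are treated as pairs in the pair by pair differences and in the interaction, although the labels do not say that both came from 1 culture. The limma fits of single comparisons did not use the pairs, except where a replicate block is named.

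NF-kB is a family of dimeric transcription factors that inhibitor proteins of the IkB family hold in the cytoplasm. Signals from cytokine receptors activate the IkB kinase complex, the inhibitor is degraded, and the freed dimers enter the nucleus and switch on inflammatory genes together with their own inhibitors. In the brain, neurons and glia both carry the pathway, and Ptgs2 encodes cyclooxygenase-2, the inducible enzyme of prostaglandin synthesis that neurons also make in response to synaptic activity.

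The promoters are shown because IkB and feedback genes are classically regulated through kappaB elements close to their start. RefSeq promoter windows (GRCm38.p6, 250 bases before to 50 after the start) were matched for 7 of the 10 genes, and for Nfkb1, Nfkbiz and Relb none was matched. The kappaB consensus, searched by name on both strands, was found in the windows of Rel, Nfkb2, Nfkbia, Tnfaip3 and Ier3, and these letters were not in the windows of Rela or Ptgs2. Of 32817 promoter windows, 4.5% held it. The runs below are on the gene's own strand with the match in capitals. The first lies at chr12:55492657-55492686, the second at chr10:19015403-19015432 and the third at chr19:46304688-46304717.
Nfkbia: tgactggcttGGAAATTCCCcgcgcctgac
Tnfaip3: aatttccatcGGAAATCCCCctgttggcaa
Nfkb2: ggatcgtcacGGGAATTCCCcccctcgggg

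The Ptgs2 window held a match to TGACGT, the core letters of the cyclic AMP response element, on the opposite strand, and it overlaps matches to the hypoxia core ACGTG. It starts 13 bases into the gene, and the run shown lies at chr1:150100031-150100060, with the match in capitals as its reverse complement. The windows of Rel and Tnfaip3 also held TGACGT, and those of Rel, Tnfaip3 and Ier3 also held ACGTG. The response element letters were present in 7.51% of promoter windows and the hypoxia core in 19.6%, both strands counted. A match of this kind is a description of letters, and binding was not measured.
Ptgs2: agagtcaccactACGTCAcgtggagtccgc

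Because ciRS-7 binds miR-7, the longest annotated 3′ UTR of each gene (GENCODE M21) was also searched for GTCTTCC, the 7 bases that pair with the miR-7 seed (bases 2 to 8, in capitals in the microRNA). The site was present once in the 3′ UTRs of Rela, Relb, Rel, Tnfaip3, Ier3 and Ptgs2, 6 of the 10 genes, against 11.9% of 20999 genes with a 3′ UTR. These UTRs ranged from 336 bases (Relb) to 5418 bases (Rel), and the share of genes with a site was not matched for UTR length. The sites of the 2 members that rose most in WT cultures and of Rela are shown, with the site in capitals.
mmu-miR-7a-5p: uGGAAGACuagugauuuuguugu
Ptgs2: aatattgatatGTCTTCCagcccattgaa
Tnfaip3: agaaattgtctGTCTTCCatatatgcttc
Rela: tactatcaagtGTCTTCCtccacgcggat

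The libraries held between 7064141 and 16645011 reads in the genes listed in all 4 tables. Cdr1as had 545 to 1912 reads in the 10 WT libraries and 2 to 16 in the 10 KO libraries, which fits the genotype labels. All 12 neuron markers were listed, and 8 of them fell under OGD in WT and 9 in KO, with summed levels of 4419 to 5780 CPM (reads scaled to a common library size) in N_WT, 2878 to 5191 in OGD_WT, 4972 to 5170 in N_KO and 3131 to 4017 in OGD_KO. RNA of astrocyte genes was also present: 9 of 10 markers were listed, 7 rose and 1 fell (Gfap) in WT and 6 rose in KO, and their sum went from 774 to 1018 CPM in N_WT to 1583 to 1944 in OGD_WT, and from 723 to 1011 in N_KO to 1403 to 1829 in OGD_KO. None of the 15 microglia markers was listed in the WT table of OGD against normoxia. In the KO table only Cd68 was, with a fitted log2 fold change of 0.80. Cd68 was not listed in the normoxic comparison of genotypes. Its listing came with the OGD libraries of KO, where it was higher, and no p is given for it. Beside these marker counts, 21.6% of all genes rose and 22.8% fell in WT, and 21% rose and 19.9% fell in KO. Of 12 vascular and fibroblast markers, the 3 listed in both comparisons of OGD with normoxia summed to 3.13 to 9.34 CPM over the 4 groups. Of 9 oligodendrocyte lineage markers, the 7 listed summed to 199 to 457 CPM. The part of these shifts in the results below was not tested, and in bulk RNA fewer cells of a type and less RNA per cell cannot be told apart.

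OGD raised the RNA of most of these genes in cultures of both genotypes. In WT, 6 of the 9 listed members rose and none fell, with a median log2 fold change of 0.82 beside -0.03 over all genes of that table. OGD changed a large share of all genes, so the count is read against that background: 44.3% of the 14235 genes passed the same limma threshold (Benjamini-Hochberg adjusted p under 0.05), 21.6% as higher and 22.8% as lower. In KO, 7 of 9 rose and none fell, with a median of 0.97 beside 0.00, against a background of 40.9% of 14375 genes called, 21% as higher and 19.9% as lower. The libraries of 5 members in WT did not overlap between OGD and normoxia, against 13.9% of all genes that were separated upward, and in KO this held for 6 members against 13.4%. The 3 largest rises, of Ptgs2, Tnfaip3 and Nfkbiz, ranked 20th, 45th and 59th of all 14235 genes in WT. Ptgs2 and Relb were not listed in the table of the 2 normoxic groups, so their listing in the OGD tables came with the OGD libraries, where they were higher, and their counts and tests are not independent of it. Of the 7 members listed in all 4 tables, 5 rose in WT and 5 in KO, beside 21.2% and 20.6% of the 13688 genes listed in all 4.

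**Figure D1:**
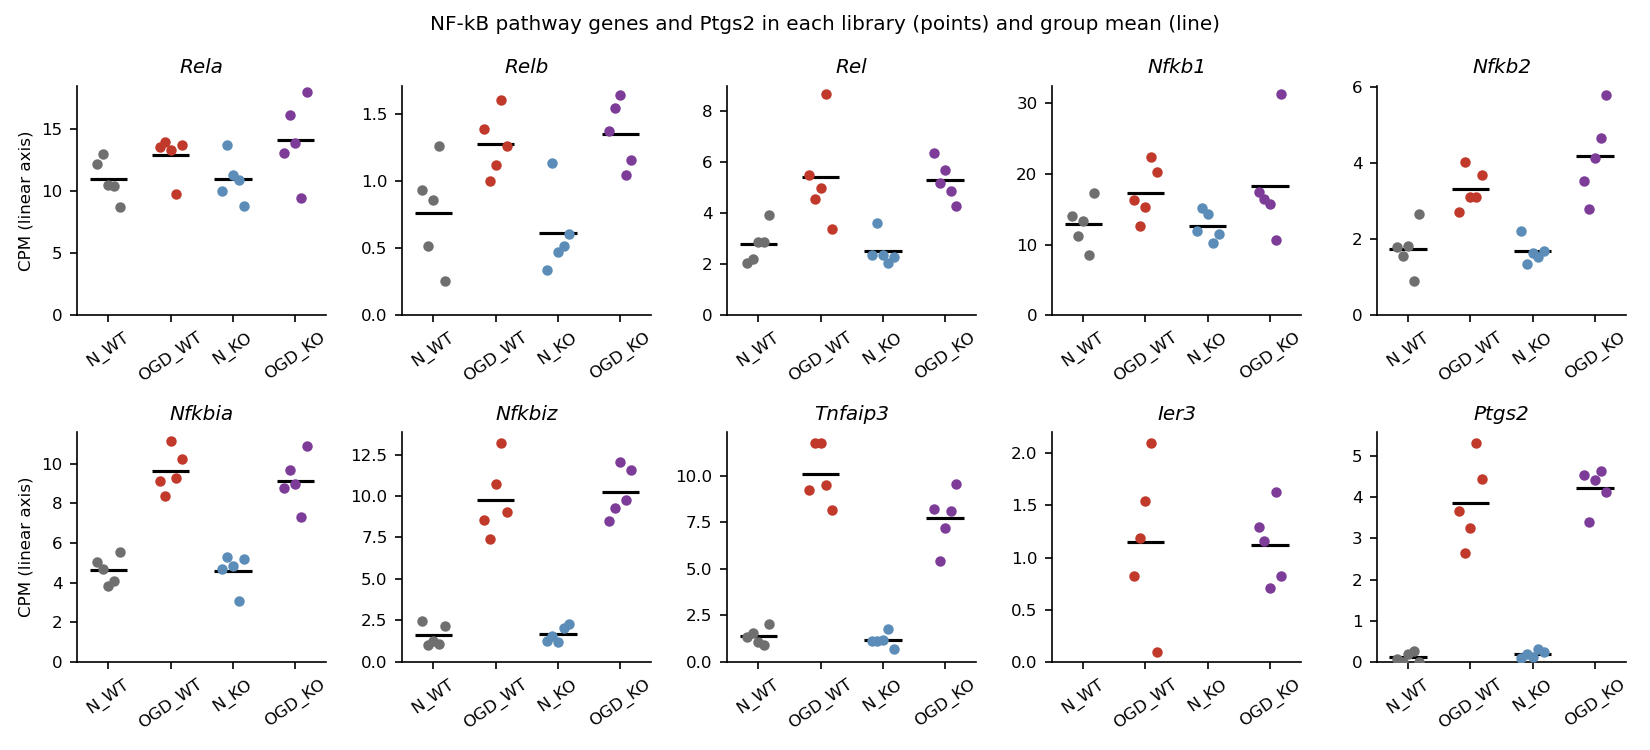
Level of each gene in every library, in CPM on a linear axis that starts at 0, with points for the 5 libraries of a group and a line for the group mean; Ier3 has values in the OGD groups only. Ptgs2 lay between 0 and 0.308 CPM in the normoxic libraries and between 2.64 and 5.31 CPM under OGD, while the libraries of Rela overlapped between conditions.

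Of the 5 subunit genes, 2 rose in WT and 3 in KO, beside 21.6% and 21% of all genes. Rela (chromosome 19, 5637483 to 5648130, plus strand; mm10 for all gene positions) encodes p65, the main activating subunit of the canonical pathway. Its levels were 12.2, 13.0, 10.5, 10.4 and 8.71 CPM in N_WT and 13.6, 13.9, 13.3, 9.76 and 13.7 CPM in OGD_WT, in the order of replicates 1 to 5. The groups overlapped, since replicate 4 of OGD_WT lay inside the normoxic range. The log2 fold change under OGD was 0.21 (SE 0.16, limma adjusted p = 0.282) in WT and 0.34 (SE 0.17, limma adjusted p = 0.12) in KO, neither past the threshold. Rela was nonetheless among the genes with the most RNA per length, as given below.

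Nfkb1 (chromosome 3, 135584655 to 135691547, minus strand) encodes p105, the precursor of the p50 subunit that pairs with p65. It averaged 12.9 ± 3.26 CPM (SD, n = 5) in N_WT and 17.4 ± 3.91 in OGD_WT, and 12.6 ± 2.04 in N_KO and 18.3 ± 7.72 in OGD_KO. The log2 fold changes were 0.41 (SE 0.19, limma adjusted p = 0.0743) in WT and 0.46 (SE 0.21, limma adjusted p = 0.0884) in KO. The spread in OGD_KO came with replicate 5 at 31.3 CPM beside 10.7 to 17.5 in the other libraries, and without it the KO value was 0.25 (limma adjusted p = 0.246). The annotated span of the model Gm43430 overlaps that of Nfkb1 on the same strand. Whether the 2 share exon bases was not examined, and how such reads were counted is not given in the sources used here.

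Rel and Nfkb2 rose in both genotypes. Rel (chromosome 11, 23736847 to 23770970, minus strand), which encodes the subunit c-Rel, had 2.06, 2.21, 2.85, 2.89 and 3.91 CPM in N_WT and 5.49, 4.56, 4.98, 8.65 and 3.39 in OGD_WT. Replicate 5 ran against the others, with the highest normoxic and the lowest deprived level, and so the WT groups overlapped. In KO they did not, at 2.05 to 3.60 CPM in normoxia and 4.29 to 6.34 under OGD. The log2 fold changes were 0.82 (SE 0.21, limma adjusted p = 0.003) in WT and 0.97 (SE 0.17, limma adjusted p = 0.000215) in KO.

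Nfkb2 (chromosome 19, 46304320 to 46312385, plus strand) encodes p100, the precursor of p52 in the non-canonical pathway. It went from 1.79, 1.56, 1.81, 0.903 and 2.65 CPM in N_WT to 2.71, 4.01, 3.09, 3.09 and 3.68 in OGD_WT. In KO it went from 2.20, 1.33, 1.65, 1.54 and 1.69 to 3.53, 2.79, 4.13, 4.64 and 5.77. Every OGD library thus lay above every normoxic library of its genotype, by a narrow margin in WT. The log2 fold changes were 0.82 (SE 0.20, limma adjusted p = 0.00259) and 1.11 (SE 0.19, limma adjusted p = 0.000142). Psd and AC114539.1 overlap Nfkb2 on the opposite strand, and whether the counting used strand is not given in the sources used here.

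Relb (chromosome 7, 19606217 to 19629438, minus strand), the partner of p52, was the subunit gene with the fewest reads, 2 to 23 per library. It averaged 0.764 ± 0.390 CPM (SD, n = 5) in N_WT and 1.28 ± 0.235 in OGD_WT, a log2 fold change of 0.58 (SE 0.23, limma adjusted p = 0.0503) that did not pass the threshold. Without N_WT replicate 5 it was 0.38 (limma adjusted p = 0.159). In KO it averaged 0.612 ± 0.307 and 1.35 ± 0.252 CPM, a rise of 0.82 (SE 0.21, limma adjusted p = 0.00472). Because Relb was not listed in the normoxic comparison of genotypes, these tests are not independent of its listing. Relb was higher under OGD in 5 of 5 pairs of either genotype. Whether its rise differed between genotypes was tested with the genes listed in both OGD tables, and the difference, KO minus WT, was 0.30 (SE 0.45, limma adjusted p = 1).

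Both inhibitor family genes rose. Nfkbia (chromosome 12, 55489410 to 55492647, minus strand) encodes IkB alpha, the inhibitor that NF-kB itself induces to close its own loop. It had 5.05, 4.67, 3.80, 4.06 and 5.56 CPM in N_WT and 9.14, 8.39, 11.2, 9.27 and 10.3 in OGD_WT. In KO, it went from 4.66, 5.27, 4.82, 3.08 and 5.18 CPM to 8.79, 9.67, 8.97, 7.31 and 10.9. No OGD library reached down to a normoxic one in either genotype. The log2 fold change was 0.99 (SE 0.15, limma adjusted p = 3.02e-05) in WT and 0.95 (SE 0.17, limma adjusted p = 0.000212) in KO.

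Nfkbiz (chromosome 16, 55811375 to 55838899, minus strand) encodes IkB zeta, a nuclear member of the family that acts with NF-kB on a subset of its target genes. Its levels were 2.46, 1.04, 1.24, 1.08 and 2.15 CPM in N_WT and 8.58, 7.39, 10.7, 13.2 and 9.00 in OGD_WT. In KO they were 1.27, 1.53, 1.18, 2.05 and 2.29 CPM in normoxia and 8.50, 9.28, 12.0, 9.75 and 11.5 under OGD. Every OGD library lay far above every normoxic one in both genotypes. The log2 fold change was 2.38 (SE 0.21, limma adjusted p = 2.05e-08) in WT and 2.38 (SE 0.18, limma adjusted p = 2.46e-08) in KO. Of the rest of the IkB and Bcl3 family, 3 of 5 genes were listed (Nfkbib, Nfkbie and Nfkbil1), and none passed the threshold in either genotype.

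Tnfaip3 (chromosome 10, 19000910 to 19015657, minus strand) encodes A20, a ubiquitin-editing enzyme that NF-kB induces and that shuts off signalling from the tumour necrosis factor receptor. In N_WT it had 1.33, 1.56, 1.05, 0.903 and 2.02 CPM, from 10 to 24 reads. In OGD_WT it had 9.21, 11.8, 11.8, 9.51 and 8.13 CPM, from 77 to 146 reads. Every deprived WT library was far above every normoxic one. In KO, levels went from 1.10, 1.13, 1.18, 1.75 and 0.663 CPM to 8.22, 5.42, 7.19, 8.13 and 9.56, again without overlap. The log2 fold change was 2.57 (SE 0.18, limma adjusted p = 8.4e-10) in WT and 2.38 (SE 0.19, limma adjusted p = 6.1e-08) in KO.

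Ier3 (chromosome 17, 35821684 to 35822923, plus strand), an early stress gene and reported NF-kB target, had values in the OGD groups only, so its response to OGD was not analysed here. It had 13, 13, 18, 17 and 1 reads in OGD_WT (0.820, 1.19, 1.55, 2.10 and 0.0968 CPM). In OGD_KO it had 18, 15, 10, 14 and 5 reads (1.30, 1.16, 0.712, 1.62 and 0.824 CPM). Replicate 5 of OGD_WT stood far below the other libraries of its group.

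Ptgs2 (chromosome 1, 150100031 to 150108227, plus strand) showed the largest rise of the 9 genes with values in both conditions, in WT and in KO. In N_WT it had 1, 0, 2, 3 and 0 reads (0.0664, 0, 0.190, 0.271 and 0 CPM). In OGD_WT it had 58, 29, 38, 43 and 46 reads (3.66, 2.64, 3.27, 5.31 and 4.45 CPM). The gene was thus almost silent in normoxia and present in every deprived WT library. In N_KO it had 1, 3, 1, 3 and 4 reads (0.0848, 0.200, 0.118, 0.308 and 0.241 CPM). In OGD_KO it had 63, 44, 62, 40 and 25 reads (4.54, 3.40, 4.42, 4.64 and 4.12 CPM). The groups were again far apart.

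Summed over the 5 libraries of a group and scaled for depth, the Ptgs2 ratio of OGD to normoxia was 37.6 in WT (95% interval 17 to 104, from 214 against 6 reads) and 21.7 in KO (12.2 to 42.5, from 234 against 12 reads). These intervals cover counting error only, and reads without molecular identifiers are not independent molecules. In the limma fit on the deposited scale the log2 fold change was 3.07 (SE 0.22) in WT and 2.93 (SE 0.18) in KO. Ptgs2 was not listed in the normoxic comparison of genotypes, so its listing came with the OGD libraries, where it was higher. For that reason no p is given for its rise. With so few normoxic reads the fitted size depends on the prior count added before the logarithm, and with a prior count of 2 it was 3.93 and 3.64.

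**Figure D2:**
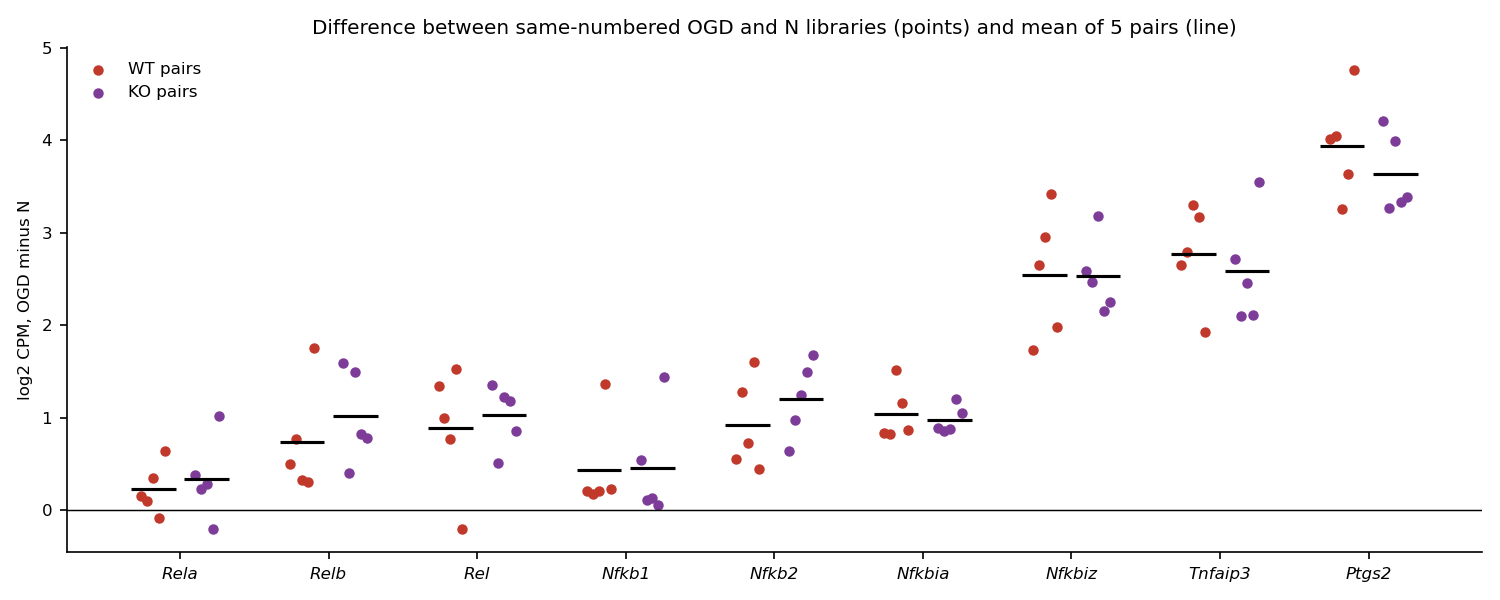
Difference in log2 CPM between the OGD and the normoxic library of the same number (points, 5 WT and 5 KO pairs) with the mean of each genotype (line); the axis is log2 and 0 means no difference. The points of Ptgs2 lay between 3.25 and 4.76, those of Nfkbia between 0.82 and 1.51, and those of Rela on both sides of 0.

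Pair by pair, 7 of the 9 genes with values in both conditions were higher under OGD in 5 of 5 WT and 5 of 5 KO pairs. Rel was higher in 4 of 5 WT and 5 of 5 KO pairs, and Rela in 4 of 5 of either genotype. Nfkbia varied least between KO pairs, with differences of 0.86 to 1.20, and Ptgs2 spanned 3.27 to 4.20 in the same pairs. In the batches labelled 3.1 to 3.3 alone (4 WT and 3 KO pairs), the WT log2 fold changes were 3.06 for Ptgs2, 2.60 for Tnfaip3, 2.56 for Nfkbiz, 1.04 for Nfkbia, 0.91 for Nfkb2 and 0.72 for Rel, and the same 6 members stayed called. In KO the batch 3 values were 2.74, 2.37, 2.17, 1.00, 1.27 and 0.80, and Rel (limma adjusted p = 0.0601) and Relb (0.54, limma adjusted p = 0.279) no longer passed. Batch 1 held 1 pair of each genotype and batch 2 held 1 KO pair, too few for values of their own.

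The order of levels per kilobase of exon changed with OGD. The length used was that of all annotated exons of a gene merged over its transcripts, from 1131 bases (Ier3) to 12061 (Nfkb1). It can exceed the length of any single transcript, so the order between genes depends on it. In N_WT, Rela led with a median of 3.40 CPM per kb, followed by Nfkbia at 2.90 and Nfkb1 at 1.10, and Ptgs2 was last at 0.0145. The ranges of Rela and Nfkbia overlapped there, as did those of each neighbouring pair from Nfkb2 (0.391) through Rel, Nfkbiz and Relb to Tnfaip3 (0.184). In OGD_WT, Nfkbia led at 5.76 CPM per kb with no overlap with Rela at 4.41, and Nfkbiz came next at 1.79, overlapping Nfkb1 at 1.35. Ptgs2 stood at 0.799, in an unbroken run of overlapping neighbours from Nfkbiz down to Rel (0.668), and Relb was last at 0.324. OGD_KO had the same order from Nfkbia (5.57) to Relb (0.353), although there Nfkbia and Rela (4.50) overlapped.

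No member passed the threshold in a comparison of KO with WT. In normoxia none of the 7 listed members passed the threshold, against 0.0353% of 14152 genes called, and none had an unadjusted p under 0.05. The log2 differences, KO minus WT, ran from -0.20 for Tnfaip3 (95% interval -0.68 to 0.28) to 0.08 for Nfkbiz (-0.42 to 0.58), with a median of -0.01 beside 0.00 over all genes and limma adjusted p-values of 1. Ptgs2, Relb and Ier3 were not listed in that table, and Ier3 had no normoxic values to compare. Ptgs2 and Relb were compared by two-sided exact permutation tests of 5 against 5 libraries, a choice made after seeing which genes were listed. Ptgs2 differed by 0.46 on the log2 scale (exact p = 0.183) and Relb by -0.21 (exact p = 0.587), where the smallest p possible is 0.00794. These tests were not adjusted for the other genes.

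Under OGD none of the 10 members passed, against 0.0282% of 14185 genes called, and 1 (Tnfaip3) had an unadjusted p under 0.05. Tnfaip3 was lower in KO by a log2 difference of -0.38 (95% interval -0.74 to -0.03, limma adjusted p = 1), with 5.42 to 9.56 CPM in OGD_KO overlapping 8.13 to 11.8 in OGD_WT. Ptgs2 differed by 0.14 (interval -0.25 to 0.54), Nfkb2 by 0.28 (-0.12 to 0.68) and Nfkbia by -0.08 (-0.40 to 0.23). The interval of Ier3 was the widest, -0.60 to 0.89 around 0.14. These intervals do not show that the genotypes were equal, and for Ptgs2 they leave room for a difference of 0.54.

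**Figure D3:**
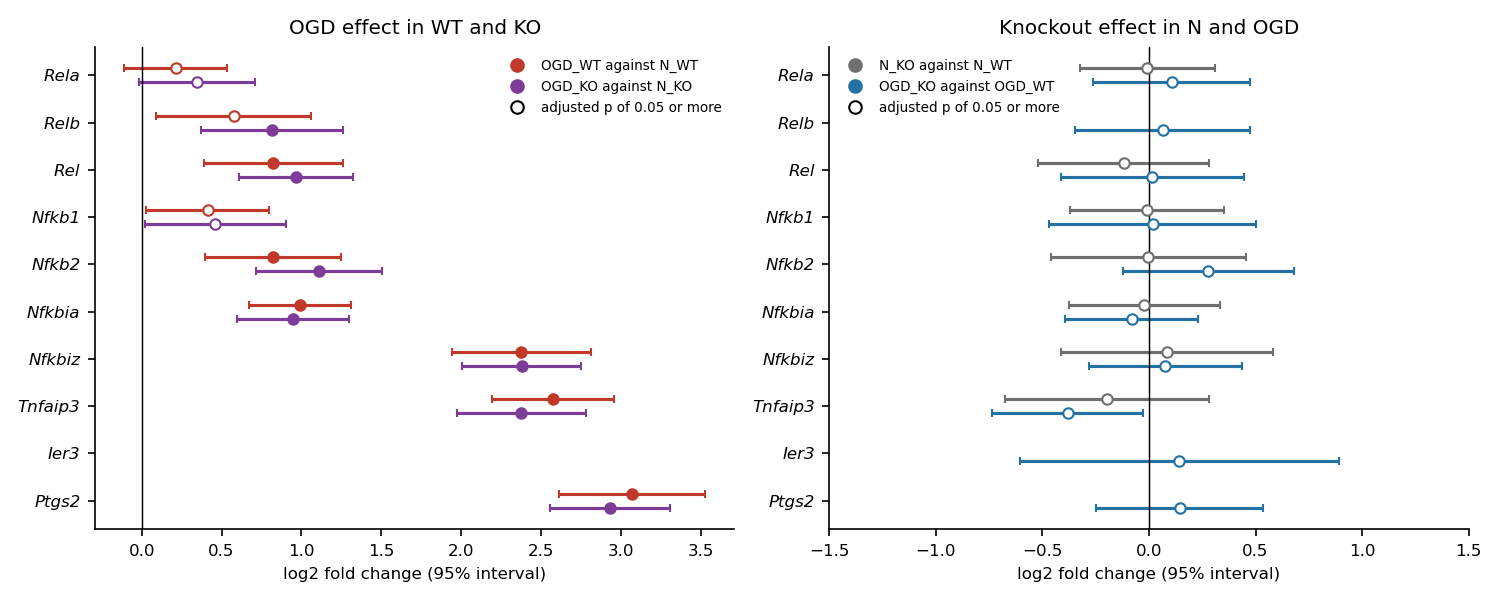
Log2 fold change of each gene with its 95% interval (limma), for OGD against normoxia in WT and KO on the left and for KO against WT in normoxia and under OGD on the right; filled points passed an adjusted p of 0.05. On the left Ptgs2, Tnfaip3 and Nfkbiz lie between 2.38 and 3.07, and on the right no point is filled.

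The size of the OGD response was also compared between genotypes directly, as an interaction over all 20 libraries. No member and none of 13688 genes passed (0%), and 100 genes had an unadjusted p under 0.05. With no true difference, a share of about 0.05 of the genes would be expected there, far more than 100. The p-values of this fit thus ran large, and its empty result does not show that the responses were equal. The pairs entered as a random block with a consensus correlation of -0.17. For the genes not in that set, the fit over genes in both OGD tables gave -0.34 for Ptgs2 (SE 0.42, limma adjusted p = 1), with 0 of 14097 genes called and 123 at an unadjusted p under 0.05. The interval of the Ptgs2 difference was -1.21 to 0.53, so a smaller or a larger rise in KO could not be told apart.

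The wider pathway was described by 8 lists with 158 genes, of which 80 were listed in the WT table and 82 in the KO table of OGD against normoxia. In WT 23 rose, 13 fell and 44 did not pass, with a median log2 fold change of 0.20 beside -0.03 over all genes. In KO 24 rose, 11 fell and 47 did not pass, with a median of 0.24 beside 0.00. The share called in either direction, 36 of 80 in WT and 35 of 82 in KO, was near the 44.3% and 40.9% of all genes. By direction, 21.6% of all genes rose and 22.8% fell in WT, and 21% rose and 19.9% fell in KO. Some of the rises, named below, are of genes not listed in the normoxic comparison of genotypes. None of the 76 or 86 listed genes was called in a genotype comparison.

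**Figure D4:**
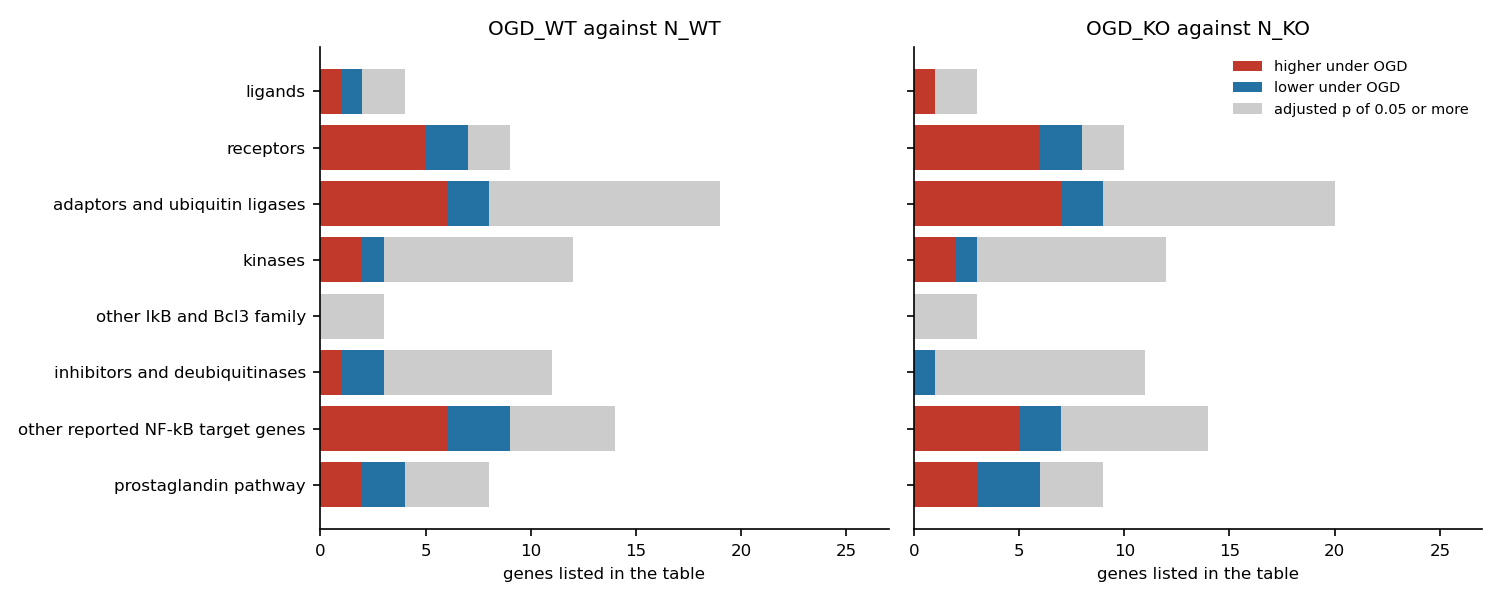
Number of genes in each pathway list that were higher, lower or not past an adjusted p of 0.05 under OGD (limma), in WT on the left and KO on the right; the axis counts the genes listed in the table. In WT the receptor list had 5 higher and 2 lower of 9, and the kinase list 2 higher and 1 lower of 12. Of all genes in WT, 21.6% were higher and 22.8% lower. Among the higher receptor genes, Tnfrsf12a and Ltbr were not listed in the normoxic comparison of genotypes.

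Few ligand genes were listed, 4 of 26 in WT (1 higher, 1 lower) and 3 in KO (1 higher). Of all genes, 21.6% were higher and 22.8% lower in WT, and 21% higher in KO. The chemokine gene Cxcl10, the 1 counted as higher in WT, had 0 to 1 reads per library in N_WT and 15 to 21 in OGD_WT, with a fitted log2 fold change of 2.27. It was not listed in the normoxic genotype table, so its listing came with the OGD libraries, and no p is given for it. It had 11 to 29 reads in OGD_KO and was not listed in the KO table of OGD against normoxia. The chemokine gene Cxcl12 fell by 0.51 in WT (limma adjusted p = 0.0305) and had -0.34 in KO (limma adjusted p = 0.173). Csf1, the gene of a macrophage growth factor, is named after its values were seen, as the only ligand called in KO. It rose there by 0.67 (limma adjusted p = 0.0046) and had 0.20 in WT (limma adjusted p = 0.342), and the difference between genotypes was 0.48 (SE 0.28, limma adjusted p = 1).

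Among receptors, 5 of 9 listed genes rose and 2 fell in WT, and 6 of 10 rose and 2 fell in KO. Of all genes, 21.6% rose and 22.8% fell in WT, and 21% rose and 19.9% fell in KO. Tnfrsf12a, the receptor for the cytokine TWEAK, rose by 2.15 in WT and 2.38 in KO. Eda2r, a receptor for the ectodysplasin A2 ligand, rose by 1.36 and 1.58, and Tnfrsf1a, the main receptor for tumour necrosis factor, by 0.87 and 1.17. Ngfr, the p75 neurotrophin receptor, fell, with log2 fold changes of -1.18 and -1.40, and Tnfrsf11a, which encodes RANK, fell by 0.87 in both genotypes. The values of Eda2r, Tnfrsf1a, Ngfr and Tnfrsf11a passed at a limma adjusted p of 0.00208 or less. Tnfrsf12a and Ltbr, counted as higher in both genotypes, and Tnfrsf13c, counted in KO, were not listed in the normoxic comparison of genotypes. Their listing came with the OGD libraries, where they were higher. The counts of rises are not independent of it, and no p is given for these genes.

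Adaptors and ubiquitin ligases had 6 higher and 2 lower of 19 listed in WT, and 7 higher and 2 lower of 20 in KO. The shares of all genes were 21.6% higher and 22.8% lower in WT, and 21% and 19.9% in KO. Irak1, a kinase of interleukin-1 and Toll-like receptor signalling, rose by 0.81 and 0.88 in WT and KO. Ripk1, a scaffold kinase of the tumour necrosis factor receptor, rose by 0.71 and 0.70, and Bcl10 by 0.74 and 0.60. Tradd, the adaptor of that receptor, fell, with values of -0.96 and -0.63, as did Ube2n, a ubiquitin-conjugating enzyme, at -0.46 and -0.56.

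Among subunits of the IkB kinase complex, Chuk and Ikbkg went in opposite directions. Ikbkb, which encodes the catalytic subunit IKK beta, had 0.25 in WT (limma adjusted p = 0.199) and 0.25 in KO (limma adjusted p = 0.258). Chuk, which encodes the catalytic subunit IKK alpha, rose by 0.80 in WT (SE 0.14, limma adjusted p = 0.000123) and 0.89 in KO (SE 0.16, limma adjusted p = 0.000233). Ikbkg, which encodes the regulatory subunit NEMO, fell, with -1.04 (SE 0.17, limma adjusted p = 4.91e-05) and -0.88 (SE 0.15, limma adjusted p = 0.000121). Map3k14, the kinase NIK of the non-canonical pathway, rose by 0.47 and 0.53. The other 9 of the 12 listed kinase genes, Ikbkb among them, did not pass in either genotype. Of 11 listed inhibitors and deubiquitinases, 1 rose and 2 fell in WT and 1 fell in KO. Of all genes, 21.6% rose and 22.8% fell in WT, and 21% rose and 19.9% fell in KO. Cyld, a deubiquitinase that restrains the pathway, fell, with -0.43 in WT and -0.47 in KO. Tnip2 rose by 0.66 and Tnip1 fell by 0.47 in WT, and neither passed in KO.

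Other reported NF-kB target genes were mixed, with 6 higher and 3 lower of 14 listed in WT and 5 higher and 2 lower in KO. The shares of all genes were 21.6% and 22.8% in WT, and 21% and 19.9% in KO. Junb, an AP-1 subunit gene, rose by 2.56 in WT and 2.24 in KO, and the stress gene Gadd45b by 1.97 and 1.71. Gadd45b was not listed in the normoxic comparison of genotypes, so its listing came with the OGD libraries, where it was higher. The adhesion gene Vcam1 rose by 1.08 and 0.86. Sod2, the mitochondrial superoxide dismutase, fell, at -0.43 and -0.49, and so did the survival gene Bcl2l1, at -0.47 and -0.57. Tap1, a peptide transporter of antigen presentation, fell by 0.71 in WT and had -0.48 in KO (limma adjusted p = 0.057).

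In the rest of the prostaglandin pathway, 2 of 8 listed genes rose and 2 fell in WT, beside 21.6% and 22.8% of all genes, and 3 of 9 rose and 3 fell in KO, beside 21% and 19.9%. Ptgds, which encodes a prostaglandin D synthase, rose by 0.85 and 1.04 from 4 to 8 reads per library in N_WT. Neither Ptgds nor Ptgr1, which is also counted as higher in KO, was listed in the normoxic comparison of genotypes. Their listing came with the OGD libraries, where they were higher, so the counts of rises are not independent of it. Abcc4, a transporter that exports prostaglandins, rose by 0.62 and 0.69. The prostaglandin reductase gene Ptgr2 fell, at -0.999 and -0.63, as did Ptger3, which encodes a receptor for prostaglandin E2, at -0.84 and -0.85.

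The genes whose log2 CPM followed Ptgs2 most closely over the 20 libraries, among 12615 genes averaging 1 log2 CPM or more, were Gem, Klf4 and Gm38336, with Pearson correlations of 0.979, 0.978 and 0.975. For Nfkbia they were E4f1, Ets1 and Prag1, at 0.963, 0.961 and 0.955. The normoxic and deprived libraries of Ptgs2 form separate clusters, so these values mostly describe genes with a like step between conditions and do not measure co-variation within a condition.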

How the data were processed

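A stranded kit was used on total RNA, per the labels' protocols. The authors deposited 4 tables of log2 CPM, 1 per comparison, with 10 libraries each. The build mm10 comes from the submitters' processing notes, and the aligner, counting and gene filter are not given in the sources used here. The deposited values had been clipped in each gene and group of 5 at the 10th and 90th percentile, which was inferred from the values and undone: 45.5% to 92.8% of values per library were whole reads (within 0.05 reads, up to 500 reads) as deposited, and at least 99.91% afterwards. Each comparison was fitted in its own table with limma 3.58.1 in R 4.3.3 (eBayes with trend, two-sided, Benjamini-Hochberg), and the interaction over 13688 genes on reads with a prior count of 2 and the pair as a random block. The authors' scaling was kept in the fits of single comparisons, and the interaction was scaled by total reads in the 13688 genes. CPM per library come from recovered reads scaled by median-of-ratios. Scaling these CPM by total reads instead would move the median OGD change of all genes to -0.30 in WT and -0.28 in KO on the log2 scale. p-values measure the spread between these 5 libraries a group.

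The N and OGD libraries of a number are paired here by shared genotype and batch labels, which do not say that they are 1 culture. Their deviations from the group means correlated at -0.64 to 0.06 in WT and -0.79 to -0.06 in KO. Numbers do not pair the genotypes. The members, the lists and the clipping step were chosen with earlier results of these data known. The named genes are all 10 members and, per pathway list, up to 3 called genes with the largest rise and the largest fall in WT. Scripts were tested on simulated data. Alternatives were the deposited values, scaling, filter, prior count, replicate block, batch, and leaving out each library.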

Additional observations from a re-analysis of the deposited data

Results flagged for a closer look

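Of 38 groups of 5 libraries examined for a library far from the others, 3 held one by Dixon's criterion (gap over range above 0.71), and chance gives about 1.9. Rela in OGD_WT replicate 4 had 9.76 CPM (79 reads) beside 13.32 to 13.95 CPM in the other libraries. Rel in N_KO replicate 2 had 3.60 CPM (54 reads) beside 2.05 to 2.37 CPM. Nfkbia in N_KO replicate 4 had 3.08 CPM (30 reads) beside 4.66 to 5.27 CPM.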

How the results depend on the processing

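Of the member values under OGD, 135 of 142 alternatives in WT and 136 of 142 in KO kept direction and side of the threshold. The deposited values are clipped at both ends of each group, which narrows the spread, so their p-values run smaller. On them 8280 genes were called in WT and 8024 in KO, beside 6313 and 5884 in the main fits. Relb in WT passed on the deposited values (limma adjusted p = 0.0144) and with median-of-ratios scaling (0.0468), and without N_WT replicate 1 (0.0454) or 4 (0.021), and fell to 0.38 (0.159) without N_WT replicate 5, which also took Rela in WT to 0.13 (0.515). Nfkb1 in WT passed on the deposited values (0.0159), without OGD_WT replicate 2 (0.0347) and without N_WT replicate 5 (0.0221). Rela and Nfkb1 in KO passed on the deposited values (0.0191 and 0.0187) and without OGD_KO replicate 4 (0.0233 and 0.0187), and without OGD_KO replicate 5 Nfkb1 in KO was 0.25 (0.246). Beyond the clipping, the cause was not tested. The replicate block left 5681 genes called in WT and 4829 in KO, with 6 and 7 members, and changed no member's call. It called 3 genes for KO against WT in normoxia and 2 under OGD, where the numbers do not pair the samples. Same-numbered libraries of the 2 genotypes correlated at -0.07 to 0.24 in normoxia and -0.21 to 0.24 under OGD, and 3 and 2 of 5 correlated best with their own number.

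In batch 3 alone, with fewer libraries, 2341 genes were called in KO under OGD. For KO against WT in normoxia, 9 genes were called on the deposited values, 3 with the filter on low values, 2 in batch 3, and 3 to 5 when each library was left out. Under OGD 12 were called on the deposited values, 2 with batch as a covariate, and 1 to 7 when each library was left out. All 49 changes of sign were in values that were not called. For KO minus WT in normoxia they were Nfkbia 0.023 on the deposited values and Rela 0.0503 in batch 3, and leaving out each library gave ranges of -0.091 to 0.065 (Rela), -0.15 to 0.10 (Nfkb1), -0.18 to 0.14 (Nfkb2), -0.084 to 0.11 (Nfkbia) and -0.026 to 0.24 (Nfkbiz). Under OGD they were Nfkb1 -0.016 on the deposited values, Rel -0.093 in batch 3 and -0.026 with batch as a covariate, and Relb -0.0016 with that covariate, with ranges of -0.00072 to 0.14 (Relb), -0.12 to 0.19 (Rel), -0.20 to 0.19 (Nfkb1), -0.017 to 0.19 (Nfkbiz) and -0.24 to 0.37 (Ier3, negative only without OGD_WT replicate 5). For the interaction the ranges were -0.16 to 0.25 (Nfkb1), -0.14 to 0.057 (Nfkbia), -0.21 to 0.19 (Nfkbiz) and -0.10 to 0.29 (Rel). Depth limits Ptgs2 in normoxia, where 2 libraries had no reads, and Relb and Ier3.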
